A study of Mus musculus with 3 samples.

Results

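Wnt signalling genes were measured in mouse cornea as 54 members of a table of 21760 genes. Members were the protein-coding rows named as Wnt ligands, Frizzled receptors, the co-receptors Lrp5 and Lrp6, R-spondins and their LGR receptors, the E3 ligases Znrf3 and Rnf43, secreted antagonists (Sfrp, Dkk, Wif1, Frzb and Notum), the inhibitors Axin and Nkd, and TCF/LEF transcription factors. The rule goes by gene name. RNA was sequenced in 3 libraries, 1 per group. The PNU-282987 group was treated 3 times a day with eyedrops of that compound, which activates α7 nicotinic receptors. The excision group had lost the lacrimal gland, a surgical model of dry eye. The sham group had a cut at that site with the glands left untouched. The labels name no strain, sex or age, and leave unsaid whether the gland had been removed in PNU-282987 mice and whether corneas were pooled. The question was how this receptor acts in dry eye.

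Wnt proteins are secreted lipid-modified ligands. They bind a Frizzled receptor together with Lrp5 or Lrp6, which halts the complex of Axin, Apc and Gsk3b that marks β-catenin for destruction, so that β-catenin reaches the nucleus and acts with TCF/LEF factors. Other Wnt signals run through planar cell polarity or calcium and need no β-catenin. Secreted Sfrp and Wif1 proteins bind the ligands, and Dkk1 and Dkk2 bind the co-receptors. In mice the loss of Dkk2 turns corneal epithelium into a skin-like epithelium, so restraint of the pathway is part of corneal identity.

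Total counts were 39616004 for PNU-282987, 37692972 for excision and 37703843 for sham. Markers of corneal epithelium were abundant in each: the cornea-specific keratin gene Krt12 had 1634592 counts in PNU-282987, 1135144 in excision and 1541851 in sham, and Pax6, the eye-field factor, had 22491, 20945 and 22930 in that order. The libraries differed in markers of other tissue. The 16 lens genes in the table summed to 566.7, 22.4 and 628.7 scaled CPM (counts scaled to library size) in PNU-282987, excision and sham, and corneal endothelial markers (10 genes) to 562.5, 263 and 849.8. Goblet and gland markers (14 genes) summed to 5826 CPM in PNU-282987, 3792 in excision and 2261 in sham. Each group had 1 library, so there is no replicate check and no test, and a ratio compares 2 libraries rather than 2 conditions. Higher and lower are counted here for genes whose scaled counts differed at least 2-fold and the 95% interval of the ratio, which covers counting error only, excluded equal levels. At least 20 counts in 1 library or more were required, which 39 of the 54 members had.

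Most of the abundant members differed little between the libraries, and the widest difference among them was in the secreted antagonist Dkk1. Of the 31 members with at least 100 counts in some library, 23 differed by less than 1.5-fold between their highest and lowest library, 7 differed by 1.5-fold to 2-fold, and 1, Dkk1, by more. For excision over sham, 1 of 39 members was higher (2.56%) and 2 were lower (5.13%), beside 4.01% of 14170 genes higher and 5.48% lower. For PNU-282987 over excision the counts were again 1 higher and 2 lower, beside 3.90% and 5.62% of 14171 genes. For PNU-282987 over sham none was higher and 4 were lower (10.3%), beside 2.58% and 4.96% of 14161 genes. Shares this close to the background, on so few members, do not set the family apart in the first 2 comparisons. In PNU-282987 over sham, 3 of the 4 lower members had under 100 counts in every library. These 3 passed the count minimum only through libraries other than PNU-282987, so this share does not set the family apart either. Median log2 ratios of the 39 members were -0.03 for excision over sham, -0.07 for PNU-282987 over excision and -0.06 for PNU-282987 over sham, where those of all genes were -0.00, 0.01 and 0.00. The 4 members counted in any comparison were Dkk1, Sfrp2, Wif1 and Lgr6, and the last 3 had under 100 counts everywhere.

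**Figure D1:**
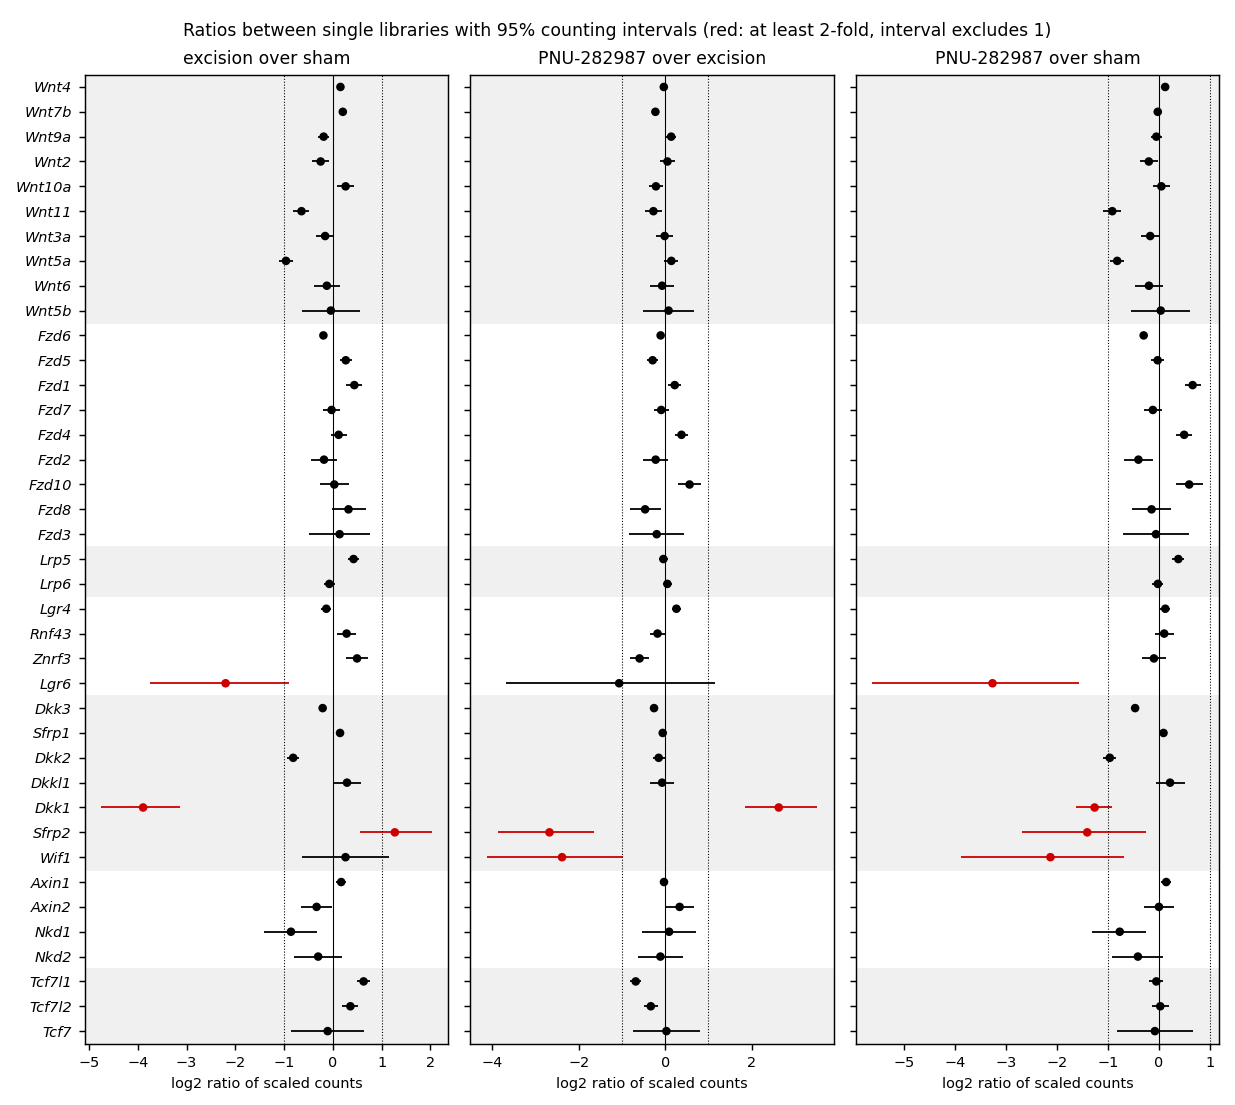
The log2 ratio of scaled counts (x axis) is drawn for each of the 39 measured members (y axis, grouped by role) in 3 comparisons, with 95% counting intervals and dotted lines at 2-fold. Most points lie between the dotted lines, and the members in red are Dkk1, Sfrp2, Wif1 and Lgr6.

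Among the 16 Wnt ligands in the table, 10 were measured and none was counted as higher or lower in any comparison. Levels of different genes were compared as scaled CPM per kb of exon, with exon lengths from GENCODE vM21. Wnt4 (gene ID 22417) led by this measure, at 73.1 CPM per kb in PNU-282987, 74.7 in excision and 67.1 in sham. It had 11902, 11630 and 10997 counts in those libraries, so excision over sham was 1.11-fold (95% interval 1.08 to 1.14) and PNU-282987 over excision 0.978-fold (0.9535 to 1.004). The 3 libraries thus held nearly the same Wnt4 level, with sham the lowest. Wnt7b (gene ID 22422) came next at 28.1, 32.9 and 28.5 CPM per kb in PNU-282987, excision and sham. Together Wnt4 and Wnt7b made up 74.6% of the summed ligand level per kb in PNU-282987, 75.5% in excision and 70.3% in sham. Wnt9a came after these in all 3 libraries, at 10.6, 9.60 and 10.95 CPM per kb in the same order.

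A middle tier of ligands followed. Wnt10a, a ligand tied in mice and humans to skin appendages, had 571 counts in PNU-282987, 633 in excision and 556 in sham. Wnt2 had 512, 472 and 591 counts in the same order, and Wnt3a, a standard activator of β-catenin signalling, had 445, 429 and 504. Each of these 3 differed by less than 1.2-fold between its highest and lowest library (1.198-fold, 1.19-fold and 1.13-fold). Wnt6 had 217, 218 and 250 counts, and Wnt5b, the least abundant ligand measured, had 53, 48 and 52. The pairs Wnt6 with Wnt10a and Wnt3a with Wnt9a are next to each other among protein-coding genes in RefSeq. In excision over sham the log2 ratios of the first pair were -0.12 and 0.26, and those of the second were -0.16 and -0.19.

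**Figure D2:**
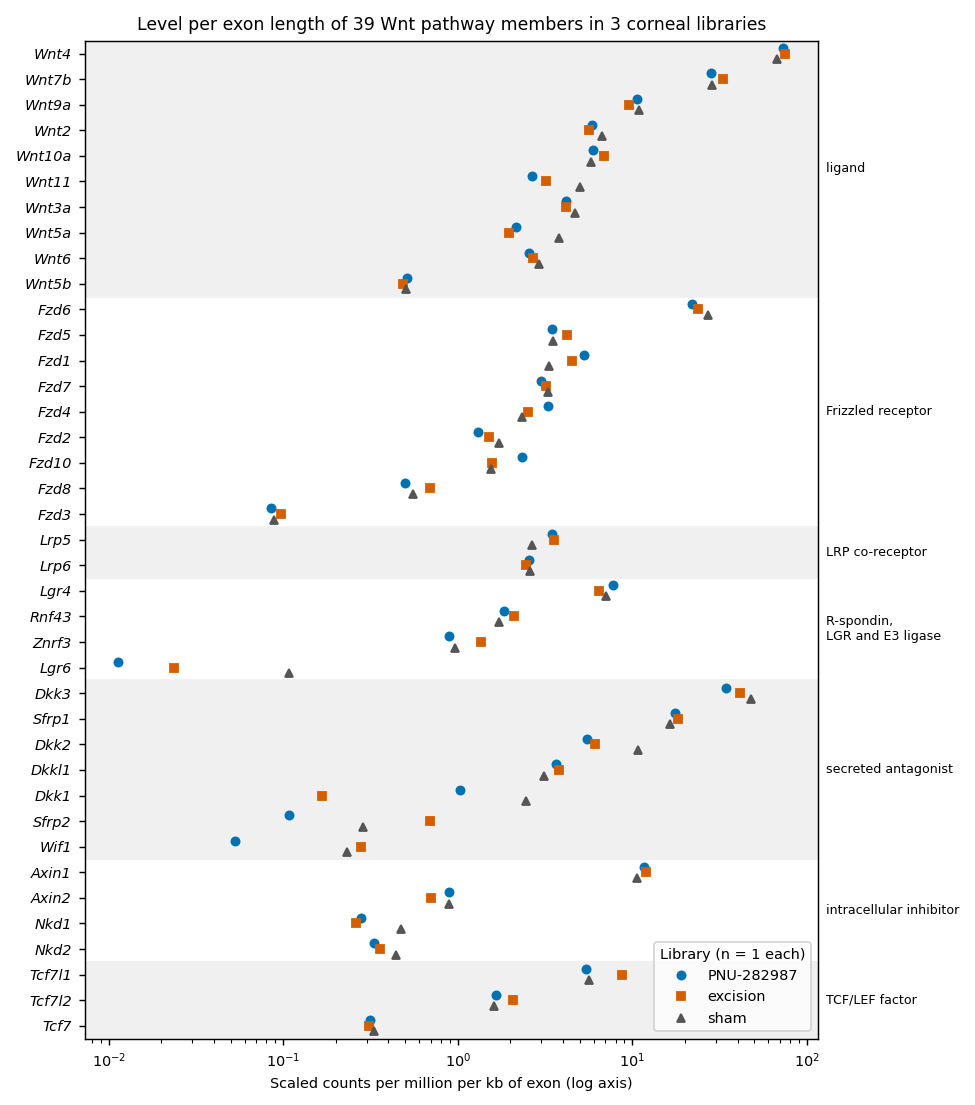
Levels per exon length (scaled CPM per kb, log x axis) of the 39 measured members in the PNU-282987, excision and sham libraries, 1 point per library, ordered within each role by the sham level. Wnt4 is the highest member at 67.1 to 74.7 CPM per kb, and Dkk3, Wnt7b, Fzd6 and Sfrp1 follow.

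Wnt5a and Wnt11, which mainly use routes that do not need β-catenin, were the ligands that differed most, with less transcript in both PNU-282987 and excision than in sham. Wnt5a (gene ID 22418) had 657 counts in PNU-282987, 569 in excision and 1166 in sham, or 16.9, 15.3 and 29.9 CPM. Wnt5a was 1.95-fold lower in excision than in sham (1.76 to 2.16) and 1.765-fold lower in PNU-282987 (1.602 to 1.945), while PNU-282987 over excision was 1.10-fold (0.985 to 1.24). Sham stood above the other libraries, which did not differ beyond counting error. Scaled to total counts in place of TMM factors, excision over sham was 0.488 and would be counted as lower. Wnt11 (gene ID 22411) had 428, 494 and 812 counts in PNU-282987, excision and sham, which made excision 1.56-fold (1.395 to 1.75) and PNU-282987 1.89-fold (1.68 to 2.13) lower than sham. Here too sham was highest, and PNU-282987 was 1.21-fold below excision (1.06 to 1.38). Both ratios against sham share the sham library. Keratocyte and stromal markers had median log2 ratios of -0.64 for excision over sham and -0.57 for PNU-282987 over sham. For excision over sham 5 of 16 were lower (31.25%) and none higher, beside 5.48% and 4.01% of all genes. For PNU-282987 over sham 1 of 16 was lower (6.25%) and none higher, beside 4.96% and 2.58%. The share for PNU-282987 over sham was thus near the background. Keratocan (Kera), a defining proteoglycan of keratocytes, had 3716, 3217 and 7395 counts in PNU-282987, excision and sham. The part of stromal content in the Wnt5a and Wnt11 values was not tested, and in bulk RNA fewer cells of a type and less RNA per cell cannot be told apart.

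The other 6 ligands stayed below the count minimum. Wnt7a, which in human corneal epithelium acts with PAX6 in differentiation, had 9 counts in PNU-282987, 14 in excision and 1 in sham, and Wnt2b had 4, 13 and 1. These are low values, and the interval for excision over sham ran from 2.24 to 623 for Wnt7a and from 2.05 to 581 for Wnt2b. Wnt3, Wnt9b, Wnt10b and Wnt16 had 0 or 1 count per library. A count of 0 allows up to 3 counts, or 0.0773 CPM in PNU-282987, 0.0808 in excision and 0.0768 in sham.

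All 9 measured Frizzled genes, which encode the Wnt receptors, were within 2-fold in every comparison. Fzd6, which orients hairs in mouse skin through planar polarity, was the most abundant at 21.96 CPM per kb in PNU-282987, 23.6 in excision and 27.0 in sham, or 53.3%, 56.2% and 62.3% of the summed Frizzled level per kb. It had 4108, 4224 and 5086 counts and was lowest in PNU-282987 (PNU-282987 over sham 0.812-fold, 0.779 to 0.847). Fzd1, Fzd4 and Fzd10 lay the other way. Fzd1 had 860 counts in PNU-282987, 705 in excision and 547 in sham (PNU-282987 over sham 1.58-fold, 1.42 to 1.76). Fzd10 had 294, 190 and 196 (1.51-fold, 1.255 to 1.82), and Fzd4 had 852, 627 and 608 (1.41-fold, 1.27 to 1.57). In each of these 3 genes PNU-282987 was the highest library. Fzd5 had 929, 1086 and 951 counts, Fzd7 had 529, 539 and 578, and Fzd2, Fzd8 and Fzd3 had between 42 and 246 in each library. Fzd9 had 0, 6 and 1 counts in PNU-282987, excision and sham. Among the co-receptors Lrp6 had the smallest spread of the 39 measured members, at 1358, 1253 and 1386 counts (highest over lowest library 1.05-fold), while Lrp5 had 1308, 1287 and 1010 (excision over sham 1.34-fold, 1.23 to 1.46, and PNU-282987 over sham 1.30-fold, 1.20 to 1.415).

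R-spondins amplify Wnt signals by binding LGR receptors, which takes the E3 ligases Znrf3 and Rnf43 away from Frizzled. The R-spondin genes were near the detection limit: Rspo1 had 10 counts in PNU-282987, 9 in excision and 6 in sham, and Rspo2 and Rspo3 had 0 or 1. Lgr4 was the most abundant LGR gene per kb, at 1757, 1403 and 1621 counts. Lgr5, a marker of intestinal stem cells, had 0, 2 and 0 counts. Lgr6, a stem cell marker of mouse skin, had 3 counts in PNU-282987, 6 in excision and 29 in sham. It passed the count minimum through sham alone. Against sham it was 9.61-fold lower in PNU-282987 (2.98 to 49.3) and 4.59-fold lower in excision (1.87 to 13.5), with wide intervals from few counts. Znrf3, which is itself a Wnt target, had 274, 395 and 295 counts in PNU-282987, excision and sham, so that excision was the highest (1.41-fold over sham, 1.21 to 1.64, and PNU-282987 over excision 0.663-fold, 0.566 to 0.776). Rnf43 had 470, 508 and 440.

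Secreted antagonists held the largest difference in the family. Dkk1 (gene ID 13380), which blocks Lrp5 and Lrp6, had 97 counts in PNU-282987, 15 in excision and 234 in sham, or 2.50, 0.404 and 5.99 CPM. Excision was 14.8-fold lower than sham (8.81 to 26.9), PNU-282987 was 6.18-fold higher than excision (3.57 to 11.5), and PNU-282987 was 2.40-fold lower than sham (1.885 to 3.07). The 3 libraries were far apart, with PNU-282987 between the others. The order of the libraries in Dkk1 was also that of the corneal endothelial markers by their median. Their median log2 ratios were -2.36 for excision over sham, 1.585 for PNU-282987 over excision and -0.60 for PNU-282987 over sham. For excision over sham 8 of 10 were lower (80%) and 1, Car12, was higher (10%). For PNU-282987 over excision 6 were higher (60%) and none lower. For PNU-282987 over sham 2 were lower (20%) and 1, again Car12, was higher (10%). Lens markers had medians of -5.44 (13 of 13 measured lower), 5.21 (13 higher) and -0.34 (1 lower, 7.69%) in the same comparisons. Birc7, Gja3 and Mip were among those at 0 in excision. Over all genes 4.01%, 3.90% and 2.58% were higher and 5.48%, 5.62% and 4.96% lower. The lens share for PNU-282987 over sham was thus near the background. The part of endothelial and lens tissue in the Dkk1 values was not tested.

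Dkk2 (gene ID 56811), the antagonist needed for corneal fate in mice, had 793 counts in PNU-282987, 841 in excision and 1556 in sham. Excision was 1.76-fold (1.62 to 1.915) and PNU-282987 1.95-fold (1.79 to 2.13) lower than sham, both short of 2-fold. Sham was again above the other libraries, which were close (PNU-282987 over excision 0.901-fold, 0.817 to 0.994). Scaled to total counts, PNU-282987 over sham was 0.485 and would be counted as lower. The stromal markers given with Wnt5a had medians below 0 in the same comparisons. For PNU-282987 over sham 1 of 16 was counted as lower (6.25%), beside 4.96% of all genes. The part of stromal content in the Dkk2 values was not tested.

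Dkk3, a divergent member of the Dkk family, was the most abundant gene per kb in the antagonist group. It stood at 34.4 CPM per kb in PNU-282987, 41.1 in excision and 47.6 in sham. Dkk3 and Dkkl1 were placed in this group by name alone, so their levels are not a measure of Wnt restraint. Dkk3 had 4489, 5129 and 6242 counts, and PNU-282987 over sham was 0.723-fold (0.696 to 0.752). Sfrp1, a decoy that binds Wnt ligands, was nearly level at 2976, 2959 and 2813 counts (highest over lowest library 1.11-fold). Its relative Sfrp2 had 9 counts in PNU-282987, 55 in excision and 24 in sham. It was 2.41-fold higher in excision than in sham (1.47 to 4.07), 6.39-fold lower in PNU-282987 than in excision (3.13 to 14.7), and 2.65-fold lower in PNU-282987 than in sham (1.19 to 6.48). Sfrp2 and Dkk1 thus had opposite orders between excision and each of the other libraries. Wif1, which binds Wnt ligands outside the cell, had 5, 25 and 22 counts, 5.23-fold lower in PNU-282987 than in excision (1.97 to 17.5) and 4.375-fold lower than in sham (1.62 to 14.8). Excision and sham did not differ beyond counting error in Wif1 (1.20-fold, 0.647 to 2.22). Summed vessel and immune markers were highest in the excision library, as Sfrp2 was, but single vessel markers went both ways. For excision over sham, 3 of 7 measured vessel markers were higher (42.9%) and 1, Kdr, was lower (14.3%). Of 10 measured immune markers, 7 were higher (70%) and none was lower. Over all genes 4.01% were higher and 5.48% lower. Vessel markers (10 genes) summed to 7.65, 17.2 and 8.35 CPM in PNU-282987, excision and sham, with Emcn and Tek at 0 in sham, and immune markers (11 genes) to 206.6, 296 and 195 CPM, with Cd3g at 0 in PNU-282987 and sham. Their part in the Sfrp2 values was not tested. Dkkl1 had 222, 223 and 192 counts. Notum, an enzyme that strips the lipid from Wnt proteins, had 14, 16 and 15, Frzb had 2, 1 and 5, and Sfrp4 had 0, 1 and 1.

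**Figure D3:**
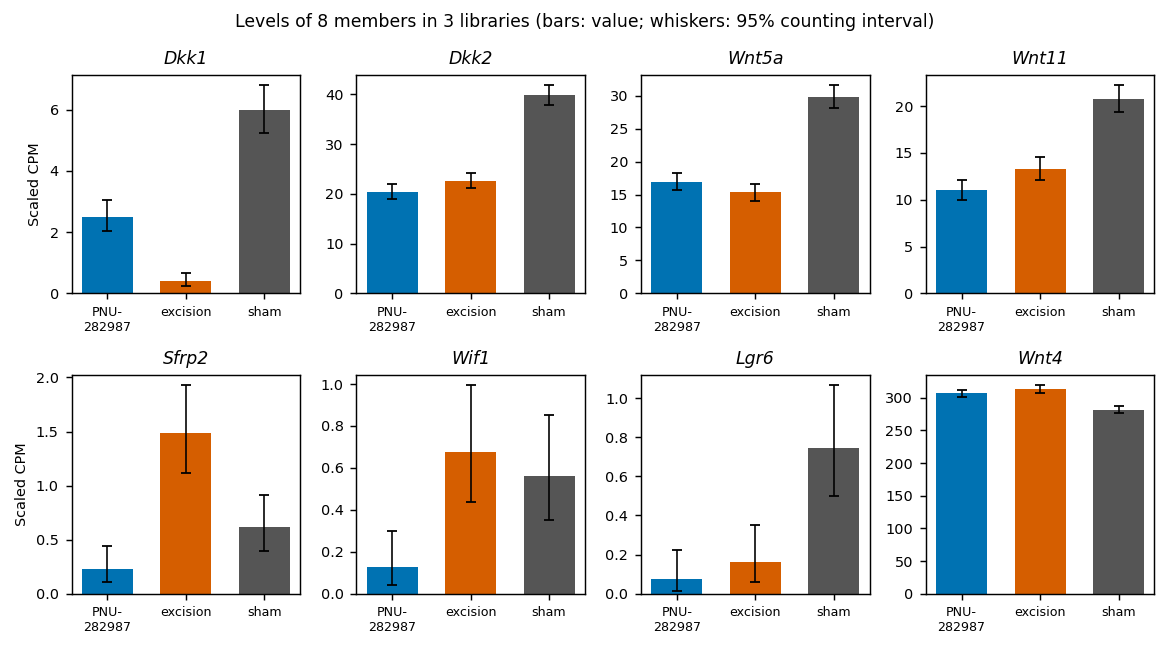
Scaled CPM (y axis, from 0) of 8 members in the PNU-282987, excision and sham libraries, with 95% counting intervals as whiskers and 1 library per bar. Dkk1 is lowest in excision, Dkk2, Wnt5a and Wnt11 are highest in sham, Sfrp2 is highest in excision, and Wnt4 is nearly level.

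Promoter sequence is shown for Dkk1, Dkk2 and Wnt11, which had less transcript in both libraries than in sham. RefSeq windows (build GRCm38.p6) reached from 250 bases before to 50 bases after a gene start and were given for 36 members. They were searched on both strands for the TCF/LEF core in any of 4 forms, namely CTTTGAT, or CTTTGAA, or CTTTGTT, or else CTTTGTA, which differ in the last 2 letters. At least 1 form was found in windows of 7 of 36 members (19.4%), beside 14.7% of 13155 protein-coding genes of the table, or 15.6% of the members' windows beside 12.4% of windows of those genes. Over all RefSeq windows, which include genes beyond these, the shares were 18.9% of genes and 16.9% of windows, so the members' shares do not stand apart. Dkk1 was the member with 2 matches, CTTTGAA and CTTTGTT, 117 and 98 bases before the gene start on the gene's strand. Wnt11 held CTTTGAT on the opposite strand 51 bases before its first start, and the window of its other start held none. The Dkk2 window held none of the 4 forms. Nkd1 and Lgr6, which also had less transcript in both libraries than in sham, had windows with none. The 250 bases before the start are printed 5′ to 3′ on the gene's strand, with matches in capitals (in Wnt11 as the reverse complement). They lie at chr19:30549497-30549746 on the minus strand for Dkk1, chr7:98834862-98835111 on the plus strand for the first Wnt11 start and chr3:132085042-132085291 on the plus strand for Dkk2.
Dkk1: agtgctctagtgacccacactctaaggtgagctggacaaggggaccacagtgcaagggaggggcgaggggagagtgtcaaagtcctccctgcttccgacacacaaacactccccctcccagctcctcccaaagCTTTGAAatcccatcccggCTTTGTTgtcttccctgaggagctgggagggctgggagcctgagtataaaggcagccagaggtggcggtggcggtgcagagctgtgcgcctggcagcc
Wnt11: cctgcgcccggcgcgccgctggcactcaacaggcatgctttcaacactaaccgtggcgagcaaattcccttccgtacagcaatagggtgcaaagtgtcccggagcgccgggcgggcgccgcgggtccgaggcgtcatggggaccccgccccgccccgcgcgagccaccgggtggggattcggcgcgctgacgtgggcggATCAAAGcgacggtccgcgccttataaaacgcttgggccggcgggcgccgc
Dkk2: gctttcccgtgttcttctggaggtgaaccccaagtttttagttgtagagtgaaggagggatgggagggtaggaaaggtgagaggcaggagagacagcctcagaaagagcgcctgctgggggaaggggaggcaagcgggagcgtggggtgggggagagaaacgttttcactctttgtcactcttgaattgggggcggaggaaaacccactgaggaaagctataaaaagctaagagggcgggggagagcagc

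Among the inhibitors inside the cell, Nkd1 differed more between libraries than Axin2. Axin2, a widely used readout of β-catenin activity, had 190 counts in PNU-282987, 144 in excision and 191 in sham. Excision was 1.26-fold lower than sham (1.01 to 1.58), PNU-282987 was 1.26-fold higher than excision (1.01 to 1.58), and PNU-282987 and sham did not differ beyond counting error (interval 0.814 to 1.23). Excision was thus the lowest library, by a margin at the edge of counting error. Axin1, the constitutive scaffold, had 1739, 1694 and 1584 counts. Nkd1, which binds Dishevelled and is also induced by Wnt, had 49, 44 and 84 counts and was 1.815-fold lower in excision (1.246 to 2.68) and 1.705-fold lower in PNU-282987 (1.18 to 2.48) than in sham. Nkd2 had 62, 64 and 83.

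Of the nuclear factors, Tcf7l1, which mainly represses Wnt targets, was highest in excision. It had 824 counts in PNU-282987, 1263 in excision and 859 in sham, so excision was 1.55-fold above sham (1.42 to 1.69) and PNU-282987 over excision was 0.624-fold (0.571 to 0.681). Tcf7l2 was also highest in excision, with smaller differences, at 560, 674 and 553 counts (excision over sham 1.28-fold, 1.14 to 1.44). PNU-282987 and sham did not differ beyond counting error in either gene. Tcf7 had 32, 30 and 34 counts and Lef1 had 6, 8 and 4. Tcf7l1 made up 73.25%, 78.3% and 74.1% of the summed TCF/LEF level per kb in PNU-282987, excision and sham.

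Further genes of the pathway were read from 6 lists, which held 123 genes in the table with 111 measured. For excision over sham 2 were higher (1.80%) and 13 lower (11.7%), beside 4.01% and 5.48% of all genes. For PNU-282987 over excision 12 were higher (10.8%) and 5 lower (4.505%), beside 3.90% and 5.62%. For PNU-282987 over sham 2 were higher (1.80%) and 6 lower (5.405%), beside 2.58% and 4.96%. The median log2 ratios over the 111 genes were 0.04, -0.06 and -0.03. None of the 6 secretion genes was counted, and Wls, the carrier of Wnt proteins to the cell surface, had 3371, 3020 and 3770 counts in PNU-282987, excision and sham. In the list of the destruction complex and relay, 23 of 24 measured genes were not counted in each comparison. Ctnnb1, which encodes β-catenin, had 25124, 21098 and 22151 counts. The exception was Cxxc4, a Dishevelled inhibitor, with 19, 3 and 45 counts, and among 18 nuclear cofactors it was Pygo1, with 16, 3 and 37. Both were lower in excision and PNU-282987 than in sham and higher in PNU-282987 than in excision. Both passed the count minimum through sham alone. Each was the 1 gene counted in its list (4.17% of 24 and 5.56% of 18). Beside these, 5.48%, 3.90% and 4.96% of all genes were counted in the same directions. Shares this close to the background do not set the 2 lists apart. Polarity genes (19 measured) included 1 that was higher in excision than in sham (5.26%) and 2 that were lower (10.5%), beside 4.01% and 5.48%. All 3 had under 100 counts (Ankrd6, Ror1 and Mcam). None was counted for PNU-282987 over excision. For PNU-282987 over sham Ankrd6 was higher (5.26%) and Mcam lower (5.26%), beside 2.58% and 4.96%. Shares on so few genes do not set this list apart.

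Secreted and membrane modulators formed a list of 22 measured genes. Excision over sham had 1 higher (4.55%) and 6 lower (27.3%), beside 4.01% and 5.48% of all genes. PNU-282987 over excision had 7 higher (31.8%) and 3 lower (13.6%), beside 3.90% and 5.62%. PNU-282987 over sham had 1 higher (4.55%) and 2 lower (9.09%), beside 2.58% and 4.96%. Endothelial markers had median log2 ratios of -2.36, 1.585 and -0.60 in these comparisons and lens markers -5.44, 5.21 and -0.34, and their part in the modulator values was not tested. Sulf1, an enzyme that trims heparan sulfate, had 294 counts in PNU-282987, 97 in excision and 511 in sham. It was 5.01-fold lower in excision than in sham (4.02 to 6.29) and 2.90-fold higher in PNU-282987 than in excision (2.30 to 3.68). Cthrc1, a secreted protein that favours polarity signalling in mice, had 315, 104 and 475 counts. The glypican gene Gpc4 had 834, 379 and 1205, and Shisa2, which retains Frizzled inside the cell, had 220, 98 and 234. All 4 had excision as the lowest library and sham as the highest, as Dkk1 had, though Shisa2 was nearly level between PNU-282987 and sham. Unlike Dkk1, none of the 4 was counted as lower in PNU-282987 than in sham. Tspan12, a partner of Fzd4 in norrin signalling, differed from them at 292, 101 and 99 counts. It was 2.76-fold higher in PNU-282987 than in excision (2.20 to 3.50) and 2.97-fold higher than in sham (2.35 to 3.76).

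Reported Wnt target genes gave no common direction. Of 22 measured, none was higher and 3 (13.6%) were lower in excision than in sham, beside 4.01% and 5.48% of all genes, with a median log2 ratio of 0.11. For PNU-282987 over excision 3 were higher (13.6%) and 2 lower (9.09%), beside 3.90% and 5.62%, with a median of -0.11. For PNU-282987 over sham none was higher and 1 was lower (4.545%), beside 2.58% and 4.96%, with a median of -0.03. Follistatin (Fst), which binds activins, had 299 counts in PNU-282987, 50 in excision and 468 in sham, 8.90-fold lower in excision than in sham (6.64 to 12.2). Tnfrsf19 had 185, 57 and 181 counts, 3.02-fold lower in excision than in sham (2.23 to 4.14). Both were lowest in excision, where endothelial and lens markers were also lowest, and the part of such tissue was not tested. Ascl2, a target in intestinal stem cells, had 62, 129 and 101 counts, 2.18-fold lower in PNU-282987 than in excision (1.596 to 2.996). The broadly used targets Ccnd1 (14220, 14186 and 9766 counts) and Myc (394, 505 and 340) were within 2-fold.

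**Figure D4:**
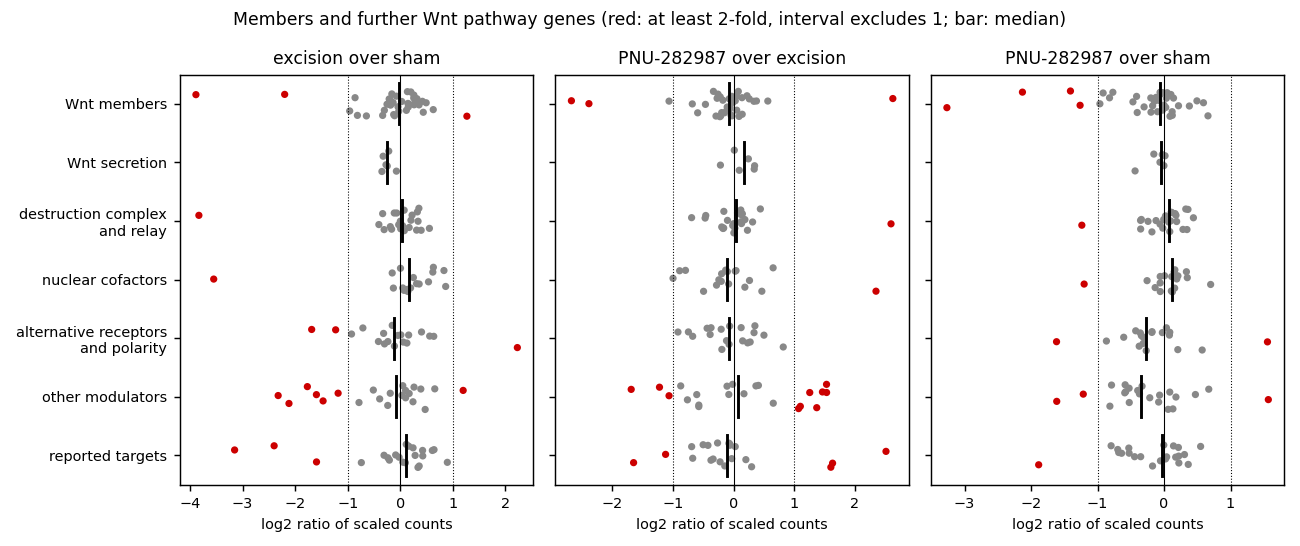
Log2 ratios of scaled counts (x axis) of the members and of 6 lists of further pathway genes in 3 comparisons, 1 point per measured gene, with the median as a black bar. Medians lie between -0.35 (modulators, PNU-282987 over sham) and 0.17 (nuclear cofactors, excision over sham). The red points to the left in excision over sham include the modulators Sulf1 and Cthrc1.

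**Figure D5:**
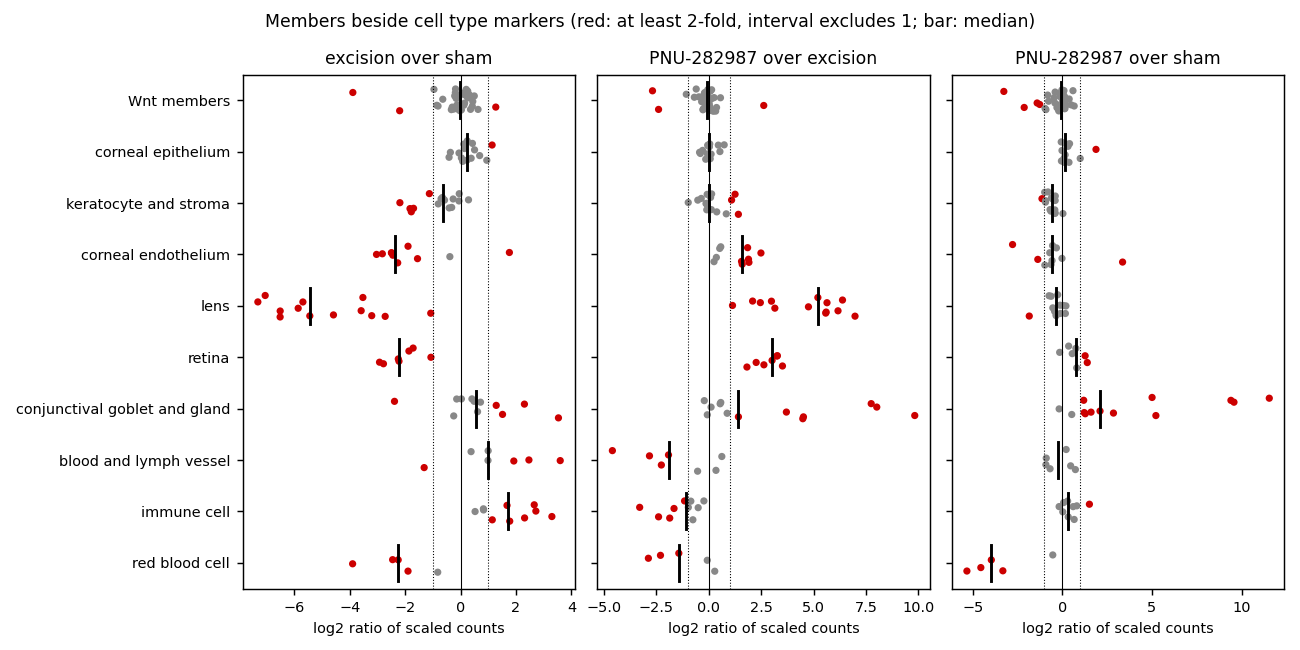
The members are set beside cell type marker lists, with the log2 ratio of scaled counts on the x axis, 1 point per measured gene and the median as a black bar. Lens, retina and endothelial markers lie far left in excision over sham, while the member median is -0.03.

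Reads of overlapping genes could not be separated with certainty, since the strand setting is not given in the sources used here. By RefSeq, 31 of the 54 members overlap no other gene and 7 overlap a protein-coding gene. Among the measured members, Tcf7 overlaps Skp1, which had 11083, 8845 and 11691 counts in PNU-282987, excision and sham, and Fzd4 overlaps Tmem135, which had 1532, 1187 and 1309. Wnt5b overlaps Fbxl14, with 868, 804 and 933 counts. The low Tcf7 and Wnt5b values are uncertain for this reason.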

How the data were processed

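RNA was sequenced from mouse cornea in 3 libraries, 1 per group, named by the treatment labels. The authors deposited 1 table of whole-number read counts per gene, used as deposited. Per the submitters' processing notes, HTSeq and R 3.2.0 were used. Aligner, build, annotation and strand setting: not given in the sources used here. Per the labels' protocols, TRIzol was the RNA reagent and VAHTS Universal V6 the library kit.

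Counts were scaled with TMM factors (edgeR 4.0.16, R 4.3.3) of 0.98 for PNU-282987, 0.985 for excision and 1.04 for sham. CPM are counts scaled to library size by these factors. Of 21760 genes, 14180 had at least 20 counts in at least 1 library. Ratios used no added constant, counts of 0 were placed at a floor of 3, and no ratio was given where both counts were 3 or fewer. Intervals are exact conditional binomial (Clopper-Pearson) 95% intervals for counting error alone, and they take reads as independent. PCR copies were not marked by molecular identifiers, so reads are not independent and the intervals can be too narrow. The scheme was run on simulated counts that held planted changes and Poisson counting error only. They held no spread between animals or from PCR copies, so the run checks the computation and not the error of a real comparison. Exon lengths are unions of GENCODE vM21 exons matched by symbol for all 54 members, and may differ from the gene models the authors counted. Ratios and intervals were computed with SciPy 1.17.1 and pandas 2.3.3 (NumPy 2.4.6, Python 3.11.15), and matplotlib 3.10.9 drew the plots. Alternatives were total-count scaling, DESeq2 1.42.0 size factors, TMM without marker genes, other count minimums and a 1.5-fold threshold.

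The members and lists were chosen with earlier results of these data known. By rule the text names each ligand with at least 20 counts, Axin2, members counted as higher or lower with at least 100 counts, and at most 4 such genes per pathway list and comparison. The other members and Cxxc4, Pygo1, Ankrd6, Ror1, Mcam, Wls, Ctnnb1, Ccnd1 and Myc, and the marker genes, were named after their values were seen. A gene that the rule names is not reported here.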

Additional observations from a re-analysis of the deposited data

How the results depend on the processing

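With 1 library per group nothing could be left out in turn, and counting depth bounds members under about 100 counts. No paired analysis was possible because each group holds 1 library and no test was made. DESeq2 size factors and TMM factors without marker genes left all counts and medians close to those reported. Total-count scaling kept the counts within 1.5-fold. It took the member median log2 ratio for excision over sham from -0.03 to -0.10. The median of all genes went from -0.003 to -0.076 with it. Over the 3 scalings, 340 ratios of measured members stayed on the same side of the threshold and within their interval, and no counted ratio reversed. Total-count scaling added Wnt5a (excision over sham, 0.488) and Dkk2 (PNU-282987 over sham, 0.485) to the members lower. It moved 9 other ratios out of their narrow intervals.

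Other count minimums change the number of genes measured by construction. At 10 counts, members higher were 3 for excision over sham and 1 for PNU-282987 over sham, and the member median log2 ratio for excision over sham was 0.12. With no filter these were 3, 1 and 0.13, and members lower for PNU-282987 over excision were 4. At 50 counts, members lower were 1, 1 and 2 for excision over sham, PNU-282987 over excision and PNU-282987 over sham. Pathway genes were then 1 higher for excision over sham, 2 lower for PNU-282987 over excision and 1 lower for PNU-282987 over sham. At 1.5-fold, members were 2 higher and 6 lower for excision over sham, 4 lower for PNU-282987 over excision, and 2 higher and 8 lower for PNU-282987 over sham. Pathway genes were then 9 higher for excision over sham, 17 lower for PNU-282987 over excision, and 4 higher and 15 lower for PNU-282987 over sham. Shares over all genes were computed at the main setting only. The counts at these other settings therefore have no background beside them and cannot be read as a shift of the family.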

Other observations

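The deposited annotation places 157 genes in the KEGG Wnt signalling pathway, a list read after the data were seen. Of these, 55 were neither members nor in the pathway lists, and 48 were measured. For excision over sham 2 of 48 were higher and 2 lower, beside 4.01% and 5.48% of all genes. For PNU-282987 over excision 2 were higher and 1 lower, beside 3.90% and 5.62%. For PNU-282987 over sham 1 was higher and 2 were lower, beside 2.58% and 4.96%. Median log2 ratios were 0.03, 0.04 and 0.03. Counts this small do not set these genes apart from all genes. Ccnd2, a cyclin of G1 phase, was the abundant one among them. It had 5851 counts in excision and 2078 in sham, 2.96-fold higher in excision (2.82 to 3.12). Prkcb, a protein kinase C gene, had 73 counts in PNU-282987 and 180 in sham, 2.45-fold lower in PNU-282987 (1.86 to 3.26). Rac2, a GTPase of blood cells, had 24 counts in PNU-282987, 57 in excision and 62 in sham.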
